A study of Mus musculus with 36 samples.

Results

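Epididymal white adipose tissue (eWAT), the abdominal fat pad that lies beside the testis and epididymis, was compared with the gastrocnemius, a calf muscle, in the male offspring of fathers fed a high-fat diet. The comparison takes in every count column of the eWAT table and every count column of the gastrocnemius table, 6 libraries each, which makes 12 of the 36 samples of the series. All 12 come from mice of the first generation, labelled C57BL/6 wild type and given as C57BL/6N in the study's methods. Their fathers were on the diet for 2 weeks before mating, whereas the sons themselves, born to unexposed mothers, were weaned onto chow and stayed on it, so that paternal exposure is common to both tissues and no son of a control father enters. In each tissue, 3 libraries are from glucose-tolerant sons (HFDt) and 3 from glucose-intolerant sons (HFDi). The columns carry library numbers and no group, so tolerance was not separated here, and the spread within each tissue includes both kinds of son. Libraries are named by those numbers (eWAT 17, 18, 22, 25, 26 and 27, and gastrocnemius 4 to 9). The age of the sons, and whether the same mice gave both tissues, are not stated in the labels. Each tissue was deposited as a table of its own, so that tissue and table cannot be told apart.

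White fat stores triglyceride in adipocytes, which hold a lipid droplet coated by perilipins, release fatty acids when noradrenaline raises cyclic AMP, take them up again under insulin, and secrete hormones such as leptin and adiponectin. Skeletal muscle is built of multinucleate fibres filled with sarcomeres, in which myosin motors pull on actin filaments each time calcium leaves the sarcoplasmic reticulum. The gastrocnemius is mostly a fast-twitch muscle, with a minority of slow, oxidative fibres, and it burns glycogen, glucose and fat. Both tissues take up glucose through the insulin-responsive transporter GLUT4, and both hold vessels, connective tissue cells and resident immune cells besides their main cell. In bulk RNA, fewer cells of a type and less RNA per cell cannot be told apart, and this holds for each difference given here.

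The libraries counted transcripts by their 3′ ends, and summed to between 1338149 and 4055537 counts in eWAT and between 369772 and 2749920 in gastrocnemius, where library 4 was the shallowest. Levels are given as CPM, the counts relative to a library total scaled by the trimmed mean of M values (TMM), and a count of 3 was worth 0.545 to 1.65 CPM in eWAT and 1.68 to 11.8 CPM in gastrocnemius. The TMM factors lay between 1.38 and 1.62 in eWAT and between 0.655 and 0.721 in gastrocnemius. Across genes, log2 levels correlated at 0.898 to 0.974 between eWAT libraries, at 0.863 to 0.960 between gastrocnemius libraries, and at 0.413 to 0.530 between a library of each tissue, and 80.2% of the variance lay on a first principal component that separated the tissues. The labelled tissues carried their defining markers, since all 8 adipocyte markers were called higher in eWAT and all 10 fibre markers higher in gastrocnemius.

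Certain libraries stood apart from the others of their tissue. In eWAT library 25 the 10 fibre markers summed to 1436 CPM against 35.4 to 382 CPM in the other 5, and in every gastrocnemius library to at least 121172 CPM. eWAT library 17 held epithelial genes that were at or near 0 elsewhere, among them Cldn2, a tight junction protein, at 598 CPM against at most 1.69 CPM in the other 5 eWAT libraries, and it had the highest sum of germ cell markers, 55.1 CPM against 4.99 to 11.3. Of 15 epididymal epithelium markers, 7, Lcn5 and Lcn8 included, were at 0 in all 12 libraries and 8 had counts, with sums of 8.34 CPM in eWAT library 17, 0 to 7.70 CPM in the other 5 and 0 to 8.98 CPM in gastrocnemius. The part of other tissue in library 17 was not tested. Gastrocnemius library 4, the shallowest, was the highest of its tissue for slow-fibre transcripts, with Myh7 at 804 CPM against 13.9 to 100.2 CPM in the other 5. Adipocyte markers were present at low level in muscle, at 565 to 2023 CPM against 21027 to 34699 CPM in eWAT. Leaving out eWAT library 25 alone lowered the ratio of eWAT to gastrocnemius by more than 1.5 times in 33 of 269 called genes examined, all of them higher in gastrocnemius. Leaving out eWAT libraries 17 and 25 and gastrocnemius library 4 together, an alternative added after the data were seen, gave 6708 differing genes in place of 6761.

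**Figure D1:**
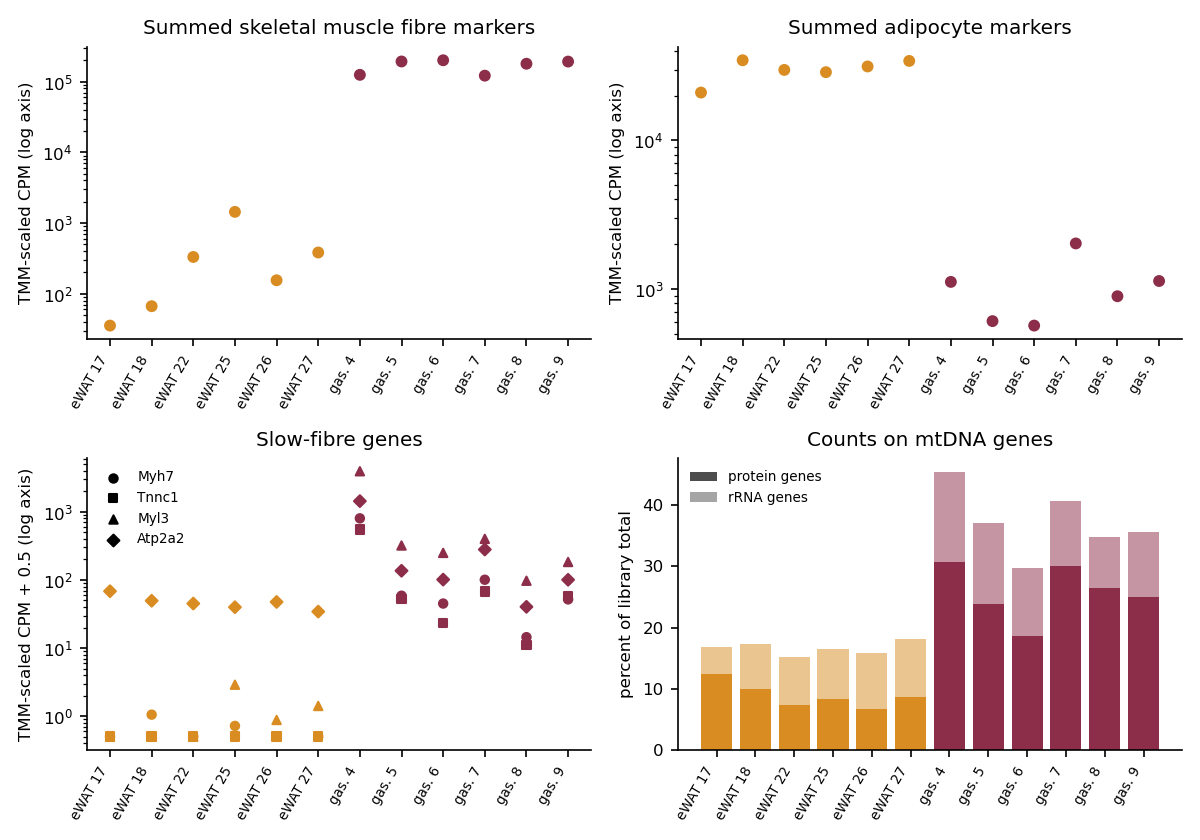
Summed skeletal muscle fibre markers, summed adipocyte markers, 4 slow-fibre genes (TMM-scaled CPM, log axes) and the percent of each library's counts on mtDNA protein genes (dark) and rRNA genes (light), one column per library, with eWAT in orange and gastrocnemius in dark red. eWAT library 25 has the highest fibre marker sum of its tissue (1436 CPM), and gastrocnemius library 4 is highest for all 4 slow-fibre genes.

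Of 9672 genes with enough counts to test, 6761 differed between the tissues at an adjusted p under 0.05 in edgeR's quasi-likelihood test, 69.9% of those tested. Higher levels were found in eWAT for 3721 genes (38.5%) and in gastrocnemius for 3040 genes (31.4%). A difference of at least 4-fold was called for 1492 genes in favour of eWAT (15.4%) and for 888 in favour of gastrocnemius (9.18%), and in 4418 genes (45.7%) the 6 libraries of each tissue did not overlap at all. A share of called members near these percentages is therefore no result about a list, and each list is given with its direction, its size of change and the members that go against it. Over every gene tested, the log2 fold change, eWAT minus gastrocnemius, had a median of 0.15 with TMM and of 1.20 with plain library totals, so that all changes below are relative to a TMM centre.

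**Figure D2:**
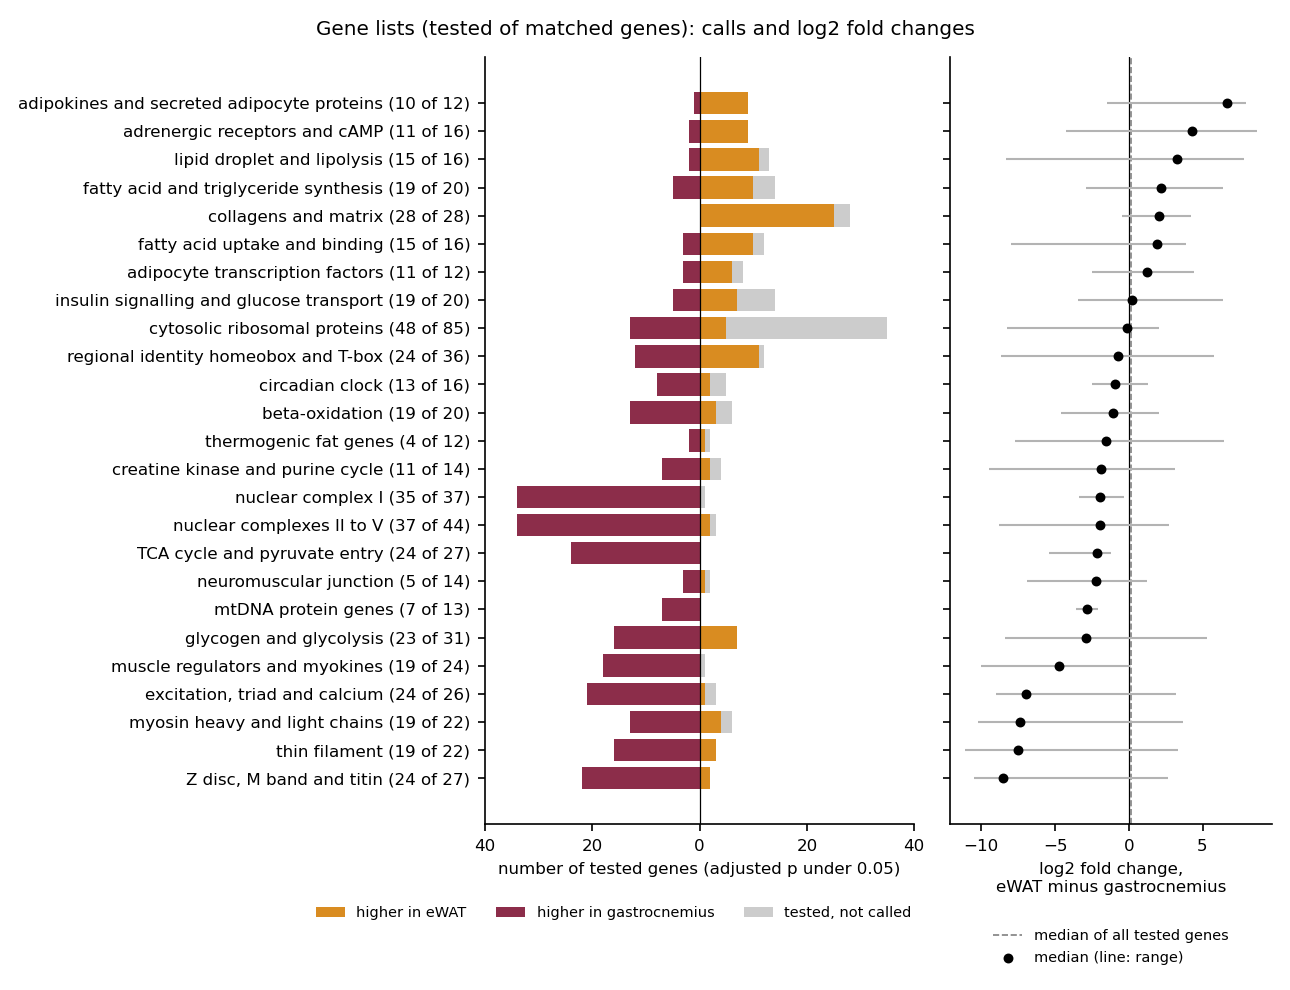
For 25 gene lists, the left panel shows how many tested genes were called higher in eWAT (orange), higher in gastrocnemius (dark red) or not called (grey), and the right panel the median and range of their log2 fold changes, with the median of all tested genes dashed. Medians run from -8.55 for the Z disc, M band and titin list to 6.69 for adipokines.

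Secreted adipocyte proteins separated the tissues most among the lists that favoured fat. Of the 10 tested members of this list of 12, 9 were higher in eWAT, 8 of them at least 4-fold, with a median log2 fold change of 6.69. Adiponectin (Adipoq), an insulin-sensitising hormone, ranged from 2753 to 5748 CPM (median 5338) in eWAT and from 5.47 to 78.4 CPM (median 38.9) in gastrocnemius, a log2 fold change of 7.09 ± 0.65 (SE, n = 6 a tissue, adjusted p = 2.85e-08). Adipsin (Cfd), a complement protease that fat secretes, ranged from 10234 to 19779 CPM (median 11308) in eWAT and from 32.5 to 275 CPM (median 109.8) in gastrocnemius. In both genes the lowest eWAT library stood above the highest muscle library. Resistin (Retn), a hormone of mouse fat, stood at 887 to 1249 CPM in eWAT against 0.781 to 11.1 CPM in gastrocnemius, with a log2 fold change of 7.83 ± 0.35 (adjusted p = 6.41e-12). Leptin (Lep), the satiety hormone, ranged from 82.5 to 359 CPM (median 170.5) in eWAT and from 0 to 5.13 CPM (median 1.11) in gastrocnemius, and its eWAT levels differed more than 4-fold between libraries. Rbp4, a retinol carrier, Nnat, a small membrane protein of adipocytes, Agt, the angiotensin precursor, and Angptl4, an inhibitor of lipoprotein lipase, were higher in eWAT as well, with log2 fold changes of 7.20, 7.92, 3.68 and 3.22 (for Rbp4 8.02 and for Nnat 9.12 without gastrocnemius library 9). Sfrp5, a secreted Wnt antagonist, was higher by 1.63, with ranges that overlapped, and was 2.27 without gastrocnemius library 7. Its call was lost without eWAT library 22 (1.33), eWAT library 27 (1.27) or gastrocnemius library 8 (1.42). The 1 member called the other way was Nampt, an enzyme of NAD synthesis that is also secreted, at 34.7 to 66.3 CPM in eWAT against 62.7 to 249.8 CPM in gastrocnemius (-1.50 ± 0.25, adjusted p = 4.54e-05).

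The transcription factors that build adipocytes were split. Pparg, the master regulator of the lineage, ranged from 7.70 to 27.96 CPM (median 15.4) in eWAT and from 0 to 8.98 CPM (median 0.611) in gastrocnemius (3.33 ± 0.60, adjusted p = 8.46e-05), with gastrocnemius library 7 inside the eWAT range and a log2 fold change of 4.49 without it. Cebpa, its partner in mature adipocytes, ranged from 40.2 to 94.2 CPM (median 73.5) in eWAT and from 0 to 11.8 CPM (median 2.67) in gastrocnemius (4.44). Ebf1, Ebf2 and Zfp423, factors of committed preadipocytes, and Nr1h3, the sterol receptor LXR alpha, were also higher in eWAT, by 2.20, 1.91, 1.23 and 3.06. Cebpb and Cebpd, the early factors of the same family, went the other way. Cebpd stood at 16.3 to 69.2 CPM in eWAT against 66.7 to 301 CPM in gastrocnemius (-2.53 ± 0.32, adjusted p = 1.78e-06) and Cebpb at 42.8 to 85.8 CPM in eWAT against 121 to 238 CPM in gastrocnemius (-1.34). Klf15, a glucocorticoid-responsive factor of both tissues, was likewise higher in gastrocnemius (-1.71). In all, 6 of 11 tested members were higher in eWAT, 3 were higher in gastrocnemius, and Rxra and Ppara were not called. Within the C/EBP family the alpha form was higher in fat and the beta and delta forms in muscle.

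**Figure D3:**
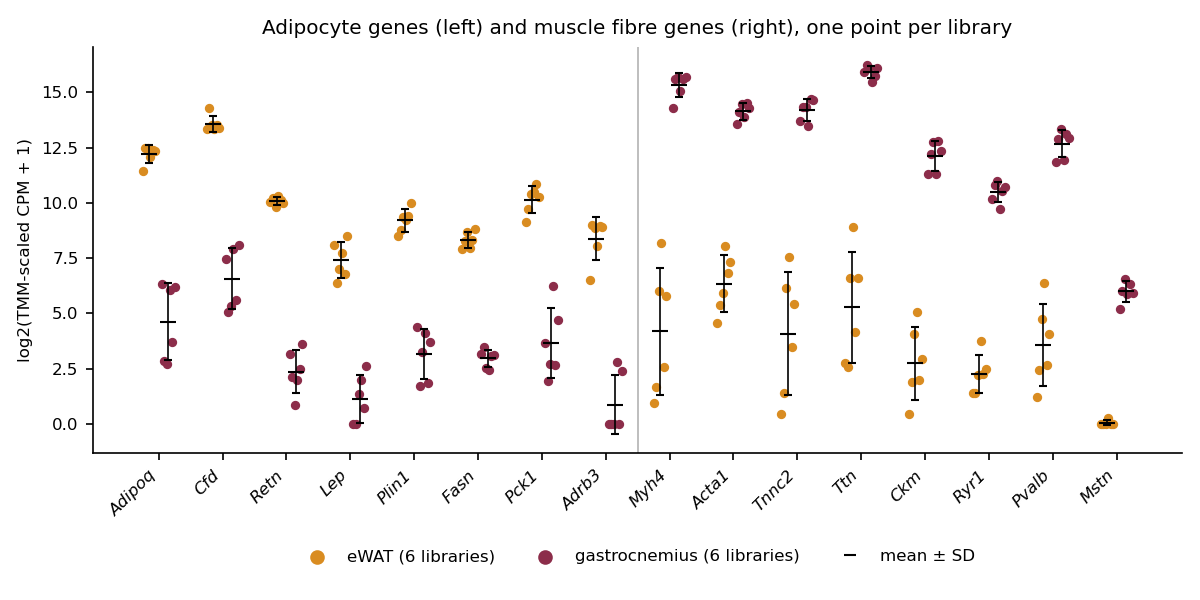
Levels of 8 adipocyte genes and 8 muscle fibre genes as log2 of TMM-scaled CPM plus 1, one point per library (eWAT orange, gastrocnemius dark red), with the mean and SD of 6 libraries in black. For all 16 genes the 6 libraries of the tissue with the higher level lie above all 6 of the other, and the muscle genes other than Mstn spread widely within eWAT.

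Genes that make fatty acids and triglyceride were higher in eWAT for 10 of 19 tested members, all 10 at least 4-fold, and higher in gastrocnemius for 5. Fasn, fatty acid synthase, ranged from 238 to 443 CPM (median 314) in eWAT and from 4.49 to 10.1 CPM (median 7.50) in gastrocnemius (5.50 ± 0.25, adjusted p = 7.78e-12). Scd1, the desaturase that makes oleate and one of the most abundant nuclear transcripts of these eWAT libraries, stood at 7329 to 14251 CPM in eWAT against 27.9 to 349 CPM in gastrocnemius (6.38). Acly and Slc25a1, which bring citrate carbon to the cytosol, differed by 2.19 and 5.37, and Slc25a1 had only 4 counts in all muscle libraries together. The acetyl-CoA carboxylases changed places. Acaca, whose product malonyl-CoA feeds synthesis, was higher in eWAT (3.16 ± 0.28), and Acacb, whose malonyl-CoA restrains fatty acid entry into mitochondria, was higher in gastrocnemius (-2.91 ± 0.26), at 6.49 to 25.8 CPM in eWAT against 103 to 176 CPM in gastrocnemius. Pck1, which supplies glycerol 3-phosphate from pyruvate in fat, reached 566 to 1822 CPM in eWAT and 2.80 to 73.3 CPM in gastrocnemius (6.03, or 7.004 without gastrocnemius library 7), with Pcx, pyruvate carboxylase, beside it (2.69). By contrast, Gpd1, which makes glycerol 3-phosphate from a glycolytic intermediate, was higher in gastrocnemius (-1.32). Lpin1, a phosphatidate phosphatase and coactivator, was higher in gastrocnemius too (-1.79), with Me1, malic enzyme (-1.67), and the glucose-responsive factor Mlxipl (-0.86, a sign that turned with library totals). Of the acyltransferases, Dgat1 and Agpat2 were higher in eWAT (3.50 and 2.19), and Dgat2 was not called at 22.8 to 64.8 CPM in eWAT against 7.96 to 98.03 CPM in gastrocnemius.

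Lipid droplet and lipolysis genes were mostly on the fat side, with 11 of 15 tested members higher in eWAT and a median of 3.29. Perilipin 1 (Plin1), the coat protein that gates lipolysis, ranged from 362 to 1013 CPM (median 631) in eWAT and from 2.24 to 19.6 CPM (median 10.3) in gastrocnemius (6.26 ± 0.42, adjusted p = 5.64e-10). Cidec, which fuses droplets into a single large one, ranged from 558 to 1400.1 CPM (median 1222) in eWAT and from 1.56 to 11.97 CPM (median 5.38) in gastrocnemius (7.83 ± 0.41, adjusted p = 2.42e-11). The lipases that act in sequence on triglyceride were all higher in eWAT. Their log2 fold changes were 2.06 for Pnpla2 (ATGL), 4.46 for Lipe (hormone-sensitive lipase) and 4.09 for Mgll (monoglyceride lipase). G0s2, an inhibitor of ATGL, differed by 4.10, and Abhd5, its activator, by 0.71. Aqp7, the channel through which adipocytes export glycerol, differed by 3.29. Both members on the muscle side are forms that oxidative tissues use. Fitm1, a protein of droplet formation, was at 0 to 0.795 CPM in eWAT against 70.3 to 141 CPM in gastrocnemius (-8.34 ± 0.38), and Plin5, a perilipin that sits between droplets and mitochondria, at 7.55 to 20.2 CPM in eWAT against 14.1 to 86.3 CPM in gastrocnemius (-1.47 ± 0.36).

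Fatty acid uptake genes favoured eWAT in 10 of 15 tested members. Lpl, the lipase that frees fatty acids from plasma lipoproteins, was abundant in both, from 2737 to 9492 CPM (median 7446) in eWAT and from 767 to 3994 CPM (median 1205) in gastrocnemius, and its log2 fold change of 1.90 ± 0.43 (adjusted p = 6.94e-04) had ranges that overlapped. Cd36, a fatty acid translocase, and Gpihbp1, which anchors Lpl to the capillary wall, differed by 2.59 and 2.17. The binding proteins were opposed: Fabp4, the adipocyte form, stood at 5653 to 13263 CPM in eWAT against 305 to 1345 CPM in gastrocnemius (3.90), and Fabp3, the heart and muscle form, at 0 to 4.99 CPM in eWAT against 195 to 1255 CPM in gastrocnemius (-7.99, or -8.82 without eWAT library 25). Acyl-CoA synthetases were opposed in the same way, with Acsl5 higher in eWAT (3.89), Acsl6 higher in gastrocnemius (-5.98, or -6.57 without eWAT library 27) and Acsl1 differing by 0.68, a call that was lost in 9 of the 12 fits without 1 library, at 0.49 to 0.63. Vldlr, a receptor for triglyceride-rich lipoproteins, was at 48.2 to 63.6 CPM in eWAT against 549 to 1107 CPM in gastrocnemius (-4.12 ± 0.20).

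Receptors and enzymes of the cyclic AMP pathway that sets lipolysis were higher in eWAT in 9 of 11 tested members of a list of 16, with a median of 4.29. Adrb3, the beta 3 adrenergic receptor of adipocytes, ranged from 89.5 to 513 CPM (median 469.6) in eWAT and from 0 to 5.98 CPM (median 0) in gastrocnemius, and 9 counts were found in all muscle libraries together (8.06 ± 0.65, adjusted p = 5.72e-09, or 8.73 without gastrocnemius library 7 and 8.89 without library 9). The lowest eWAT value, 89.5 CPM, belonged to library 17. Among receptors that lower cyclic AMP, Hcar2, the niacin and ketone body receptor, had 514 counts in eWAT and 0 in gastrocnemius, which is at least 45.4 times higher in eWAT with a floor of 3 counts over the muscle group. Adora1, the adenosine receptor, had 878 counts in eWAT and 3 in gastrocnemius, an eWAT to gastrocnemius ratio of 77.6 (95% counting interval 26.5 to 377), and the ratio was 209 without gastrocnemius library 7, which held 2 of the 3 muscle counts. Ffar2, a short-chain fatty acid receptor, differed by 6.63. Inside the cell, Prkar2b, the regulatory subunit of adipocyte protein kinase A, stood at 168 to 695 CPM in eWAT against 0 to 8.98 CPM in gastrocnemius (7.04), and Pde3b, the phosphodiesterase through which insulin blocks lipolysis, at 341 to 940.3 CPM in eWAT against 2.65 to 17.95 CPM in gastrocnemius (6.36). Pde4d, the cyclic AMP phosphodiesterase of the PDE4 family, was higher in gastrocnemius (-4.28 ± 0.26), as was Prkaca, the catalytic subunit (-1.04, about 0 with library totals). Of the thermogenic genes of brown and beige fat only 4 of 12 had enough counts to test. Ucp1, the uncoupling protein that defines brown fat, was at 0 in all 12 libraries. Kcnk3, a potassium channel, was higher in eWAT with 901 counts in eWAT and 3 in gastrocnemius, an eWAT to gastrocnemius ratio of 79.6 (95% counting interval 27.2 to 387), whereas Cox8b and Ppargc1a, which muscle shares with brown fat, were higher in gastrocnemius (-7.69 and -2.91).

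Promoter sequences are shown for a pair of fat genes and 3 muscle genes of the results, because these genes moved with their lists in opposite directions and their 300 bases (250 before and 50 after the RefSeq start, GRCm38.p6, gene strand, 5′ to 3′) hold letters known from each tissue's regulators. Capitals mark every match, on either strand, to the E-box CAGCTG (bound by myogenic factors), to the MEF2 box, to the CArG box (bound by serum response factor) and to TTGCNNAA (a C/EBP form). The Plin1 window is on the minus strand at chr7:79732727-79733026 and the Lep window on the plus strand at chr6:29059971-29060270.
Plin1: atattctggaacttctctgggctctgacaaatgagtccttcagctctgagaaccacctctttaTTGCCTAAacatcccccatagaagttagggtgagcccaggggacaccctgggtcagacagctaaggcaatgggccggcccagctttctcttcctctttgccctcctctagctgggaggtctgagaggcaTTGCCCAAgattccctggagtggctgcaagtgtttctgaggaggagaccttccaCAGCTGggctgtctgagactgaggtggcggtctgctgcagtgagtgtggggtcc
Lep: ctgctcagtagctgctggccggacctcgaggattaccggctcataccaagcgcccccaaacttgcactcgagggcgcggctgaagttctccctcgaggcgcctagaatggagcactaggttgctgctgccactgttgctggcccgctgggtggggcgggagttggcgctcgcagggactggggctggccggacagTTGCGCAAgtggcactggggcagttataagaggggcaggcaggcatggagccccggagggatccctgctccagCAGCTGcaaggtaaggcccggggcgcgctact
The Myh4 window is on the plus strand at chr11:67237562-67237861, where a TTGCNNAA match overlaps the CArG match, the Acta1 window on the minus strand at chr8:123894726-123895025 and the Pgam2 window on the minus strand at chr11:5803747-5804046.
Myh4: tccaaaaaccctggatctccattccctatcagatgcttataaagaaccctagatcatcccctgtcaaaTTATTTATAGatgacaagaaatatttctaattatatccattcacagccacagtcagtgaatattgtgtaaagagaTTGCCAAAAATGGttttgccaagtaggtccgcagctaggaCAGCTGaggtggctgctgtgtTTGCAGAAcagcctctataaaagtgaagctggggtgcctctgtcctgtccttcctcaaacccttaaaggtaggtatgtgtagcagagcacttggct
Acta1: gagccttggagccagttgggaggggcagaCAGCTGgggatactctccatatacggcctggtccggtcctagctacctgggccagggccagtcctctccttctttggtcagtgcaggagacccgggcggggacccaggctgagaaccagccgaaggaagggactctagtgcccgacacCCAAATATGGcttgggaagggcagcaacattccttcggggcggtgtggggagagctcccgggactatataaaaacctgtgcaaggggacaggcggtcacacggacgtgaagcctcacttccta
Pgam2: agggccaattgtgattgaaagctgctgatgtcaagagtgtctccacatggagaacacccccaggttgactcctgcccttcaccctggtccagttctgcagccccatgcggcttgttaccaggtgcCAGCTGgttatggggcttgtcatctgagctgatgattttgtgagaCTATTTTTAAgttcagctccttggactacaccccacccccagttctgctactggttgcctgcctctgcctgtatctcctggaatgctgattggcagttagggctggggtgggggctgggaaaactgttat
Plin1 holds TTGCNNAA at 2 places, 187 and 58 bases before the start, Lep at 1, 55 bases before it, and Myh4 also at 2, 107 and 46 bases before it. Myh4 holds a MEF2 box 182 bases and a CArG box 104 bases before the start, Acta1 a CArG box at 73 bases and Pgam2 a MEF2 box at 80 bases. All 5 windows hold at least 1 E-box, so CAGCTG did not tell the fat genes from the muscle genes. TTGCNNAA was in both fat windows and in Myh4, but in neither Acta1 nor Pgam2, so it was not confined to the fat genes. Of 27025 genes with a promoter entry, 18.3% hold CAGCTG, 12.2% TTGCNNAA, 3.70% the MEF2 box and 1.81% the CArG box. Among the tested genes, from which both sets below are drawn (7473 with an entry), the same shares were 18.3%, 9.90%, 2.48% and 1.65%. Among genes at least 4-fold higher in gastrocnemius (676 with an entry) these shares were 25.4%, 10.5%, 7.40% and 3.11%, and among those at least 4-fold higher in eWAT (1103 with an entry) 22.2%, 11.7%, 1.81% and 1.45%. A match of letters is not a bound site, and a window without one says nothing of the factor.

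Contractile genes formed the opposite pole of the comparison. Of 19 tested myosin genes 13 were higher in gastrocnemius, of 19 thin filament genes 16, and of 24 genes of the Z disc, M band and titin 22, with median log2 fold changes of -7.36, -7.50 and -8.55. Myh4, the fast type 2B heavy chain, ranged from 0.927 to 294 CPM (median 29.1) in eWAT and from 20272 to 52893 CPM (median 49134) in gastrocnemius (-9.26 ± 1.23, adjusted p = 2.98e-06). The other adult heavy chains did not overlap between the tissues either. Myh1 (type 2X) stood at 0 to 2.17 CPM in eWAT against 381 to 1623 CPM in gastrocnemius (-10.19) and Myh2 (type 2A) at 0 to 5.86 CPM in eWAT against 362 to 4760.2 CPM in gastrocnemius (-10.08). In eWAT, library 25 held the most Myh4, 294 CPM against at most 62.8 in the other 5. Without it the log2 fold changes of Myh4, Myh1 and Myh2 were -10.78, -11.36 and -11.88. Without gastrocnemius library 4, Myh2 differed by -9.38. Myh7 (slow) had 2 counts in eWAT and 514 in gastrocnemius, an eWAT to gastrocnemius ratio of 0.00103 (95% counting interval 1.25e-04 to 0.00374). Of its muscle counts 205 were in library 4, and the ratio was 0.00165 without that library, 5.56e-04 without eWAT library 18 and 6.31e-04 without eWAT library 25. The embryonic chain Myh3 was present in all 6 muscle libraries, at 7.48 to 43.6 CPM (-7.16), and the perinatal chain Myh8 at 7.84 to 98.4 CPM. Non-muscle myosin Myh9, which drives cell shape and migration, went the other way, at 182 to 277 CPM in eWAT against 41.97 to 63.7 CPM in gastrocnemius (2.16 ± 0.16).

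The same division ran through the thin filament. Acta1, skeletal actin, ranged from 22.4 to 266 CPM (median 85.96) in eWAT and from 11971 to 23405 CPM (median 18825) in gastrocnemius (-7.39 ± 0.61, adjusted p = 7.78e-09), and Actb, cytoplasmic actin, from 1186 to 1932 CPM (median 1548) in eWAT and from 112 to 174 CPM (median 146) in gastrocnemius (3.37 ± 0.20, adjusted p = 8.80e-11). Fast troponins Tnnc2, Tnnt3 and Tnni2, which make thin filaments respond to calcium, differed by -8.56, -8.73 and -8.65. Slow troponin C, Tnnc1, had 0 counts in eWAT and 390 in gastrocnemius, at least 490.5 times lower in eWAT with a floor of 3 counts over the group, and it stood at 553 CPM in gastrocnemius library 4 against 10.6 to 67.3 CPM in the other 5. Its fitted fold change, with no eWAT count behind it, was 2.34 times smaller without that library. Of the tropomyosins, Tpm1 and Tpm2 were higher in gastrocnemius (-6.80 and -7.37) and Tpm4 in eWAT (2.16). Neb, the ruler protein of the thin filament, stood at 6.12 to 192 CPM in eWAT against 18899.8 to 25709.7 CPM in gastrocnemius (-8.79) and Ttn, the giant spring of the sarcomere and the most abundant nuclear transcript in gastrocnemius, at 4.95 to 483 CPM in eWAT against 44722 to 76101 CPM in gastrocnemius (-9.07). The eWAT level of Ttn was 483 CPM in library 25 and at most 96.2 CPM in the other 5. Fits without library 25 gave log2 fold changes of -9.67, -10.11, -10.02, -10.01, -10.53, -9.09 and -10.62 for Tnnc2, Tnnt3, Tnni2, Neb, Ttn, Actn3 and Xirp2. Both members of the Z disc list on the fat side were the non-muscle actinins Actn1 (2.65) and Actn4 (2.62), whereas Actn3, of fast fibres, differed by -8.18. Myoz2, of slow Z discs, had 1 count in eWAT and 552 in gastrocnemius, an eWAT to gastrocnemius ratio of 4.80e-04 (95% counting interval 1.21e-05 to 0.00269). Without eWAT library 17, which held the eWAT count, it was at least 545 times lower in eWAT by the same floor. Mybpc1, slow myosin-binding protein C, differed by -10.24, and Xirp2, a repair protein, reached 3866 to 5641 CPM in gastrocnemius (-9.28).

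The machinery that links excitation to calcium release was higher in gastrocnemius in 21 of 24 tested genes, 18 of them at least 4-fold. Ryr1, the calcium release channel, ranged from 1.65 to 12.6 CPM (median 3.67) in eWAT and from 845 to 2011 CPM (median 1596) in gastrocnemius (-8.26 ± 0.46, adjusted p = 5.89e-11), and Cacna1s, the voltage sensor in front of it, from 0.188 to 1.52 CPM (median 0.474) in eWAT and from 185 to 260.1 CPM (median 205) in gastrocnemius (-8.28 ± 0.28, adjusted p = 6.92e-13). Trdn and Casq1, which hold calcium at the release site, differed by -8.78 and -8.89, and Pvalb, the calcium buffer of fast fibres, by -8.28. The calcium pumps differed by type: Atp2a1, of fast fibres, stood at 0 to 68.6 CPM in eWAT against 4536 to 10082 CPM in gastrocnemius (-8.71), Atp2a2, of slow fibres and most other cells, at 33.8 to 67.8 CPM in eWAT against 39.8 to 1439 CPM in gastrocnemius (-2.79), and Atp2a3, of non-muscle cells, at 26.7 to 72.1 CPM in eWAT against 0 to 9.41 CPM in gastrocnemius (3.22). When eWAT library 25 was left out, Ryr1, Trdn, Casq1, Pvalb and Atp2a1 differed by -8.91, -9.62, -9.55, -9.46 and -10.05, and without gastrocnemius library 4 Atp2a2 differed by -1.48. Camk2a, a calcium-dependent kinase, was higher in gastrocnemius (-7.93). Of 14 neuromuscular junction genes 5 had enough counts. Chrna1, the receptor subunit that binds acetylcholine, had 3 counts in eWAT and 133 in gastrocnemius, an eWAT to gastrocnemius ratio of 0.00598 (95% counting interval 0.00122 to 0.0179), and the ratio was 0.00255 without eWAT library 27, which held 2 of the 3 eWAT counts. Musk, which clusters the receptor, was higher in gastrocnemius (-5.22), and Agrn, the matrix signal that nerves and other cells secrete, was higher in eWAT (1.24).

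Among 19 tested muscle regulators and myokines 18 were higher in gastrocnemius and none in eWAT. Myf6 (MRF4), the myogenic factor of adult fibres, ranged from 0 to 0.217 CPM (median 0) in eWAT and from 66.7 to 203 CPM (median 124) in gastrocnemius, and Mef2c, which activates sarcomere genes, from 64.5 to 111 CPM (median 97.1) in eWAT and from 1405 to 2247 CPM (median 2013) in gastrocnemius (-4.38). Mef2a, a broadly expressed form, differed less (-1.22). Tbx15, a T-box factor of fast fibres that also marks other fat depots, was at 0 to 4.56 CPM in eWAT against 455 to 579 CPM in gastrocnemius (-8.67 ± 0.52, or -10.05 without eWAT library 25), and Six4, a homeobox factor of muscle, differed by -4.75. Myostatin (Mstn), the secreted brake on muscle mass, stood at 0 to 0.217 CPM in eWAT against 35.3 to 93.7 CPM in gastrocnemius, and Fndc5, the irisin precursor, at 0.550 to 12.2 CPM in eWAT against 33.2 to 184 CPM in gastrocnemius (-4.15, or -5.30 without eWAT library 17). Ostn, musclin, had 0 counts in eWAT and 7.81 to 24.6 CPM in gastrocnemius. Esrra and Perm1, regulators of oxidative metabolism, were higher in gastrocnemius (-2.98 and -8.26), and Ppargc1b, a coactivator of the same circuit, was not called, with a log2 fold change of 0.08 ± 0.22.

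Glycogen and glycolysis genes differed in both directions, often by isoform. Of 23 tested glycogen and glycolysis genes 16 were higher in gastrocnemius and 7 in eWAT, and none was left uncalled. Pfkm, muscle phosphofructokinase, ranged from 5.08 to 16.5 CPM (median 9.77) in eWAT and from 1051 to 2029 CPM (median 1712) in gastrocnemius (-7.40 ± 0.31, adjusted p = 3.87e-12), whereas the liver and platelet forms Pfkl and Pfkp were higher in eWAT (2.28 and 3.19). Hexokinase 2 (Hk2) was higher in gastrocnemius (-3.21) and hexokinase 1 (Hk1) in eWAT (1.36). Aldoa, Pgam2, Eno3, Pkm and Ldha, steps on the way to lactate, were higher in gastrocnemius with log2 fold changes of -4.26, -8.40, -8.26, -3.81 and -3.08. In glycogen breakdown, Pygl and Pygb, the liver and brain phosphorylases, were higher in eWAT, at 98.6 to 238 CPM in eWAT against 1.33 to 5.99 CPM in gastrocnemius and 129 to 281 CPM in eWAT against 6.84 to 19.6 CPM in gastrocnemius. Gys1, glycogen synthase, was higher in gastrocnemius (-1.91). Phosphorylase kinase followed the pattern, with Phka1 at 2.54 to 7.55 CPM in eWAT against 271 to 1043 CPM in gastrocnemius (-7.04) and Phka2 at 13.2 to 32.6 CPM in eWAT against 3.32 to 7.84 CPM in gastrocnemius (1.82). Of 11 tested creatine kinase and purine cycle genes 7 were higher in gastrocnemius and 2 in eWAT. Ckm, cytosolic muscle creatine kinase, ranged from 0.371 to 32.6 CPM (median 4.77) in eWAT and from 2494 to 7043 CPM (median 4913) in gastrocnemius (-8.87 ± 0.80), Ckmt2, its mitochondrial partner, differed by -9.45, and Ckb, the brain form, was higher in eWAT (3.13). Ckb stood at 96.03 CPM in eWAT library 17 and at 12.2 to 19.3 CPM in the other 5, and without library 17 it differed by 2.25. Ampd1, which opens the purine cycle, and Adssl1, which follows it, differed by -9.04 and -7.30. For Pgam2, Eno3, Ckm, Ckmt2 and Ampd1 the log2 fold changes without eWAT library 25 were -9.79, -8.94, -9.84, -10.43 and -10.03.

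Mitochondrial energy genes were higher in gastrocnemius almost throughout. Of 24 tested genes of the TCA cycle and pyruvate entry all 24 were called in that direction, of 35 nuclear complex I genes 34, and of 37 genes of complexes II to V 34, with medians of -2.16, -1.97 and -1.99. Citrate synthase (Cs) ranged from 30.96 to 60.4 CPM (median 54.9) in eWAT and from 169.6 to 347 CPM (median 229) in gastrocnemius (-2.17 ± 0.20, adjusted p = 4.27e-08). The largest difference of the cycle list was that of Slc25a4, the muscle ADP/ATP carrier, at 118 to 163 CPM in eWAT against 5082 to 7824 CPM in gastrocnemius (-5.39 ± 0.25), followed by Got1, of the malate-aspartate shuttle (-5.23). In complex I the log2 fold changes ran from -3.38 for Ndufv2, a subunit of the NADH-binding tip, to -0.73 for Ndufa7, whose sign turned with library totals, among the called genes, and Ndufa2 was not called. Sdhb, of complex II, differed by -3.53 and its partner Sdha by -1.02 (about 0 with library totals). Only Cox6a1 (2.75) and Cox8a (1.77), the liver-type forms of cytochrome oxidase subunits, were higher in eWAT.

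Fat oxidation followed with smaller differences. Of 19 tested beta-oxidation genes 13 were higher in gastrocnemius and 3 in eWAT, with a median of -1.07. Pdk4, which spares glucose by blocking pyruvate dehydrogenase, ranged from 4.77 to 26.7 CPM (median 11.1) in eWAT and from 286 to 396 CPM (median 324) in gastrocnemius (-4.62 ± 0.35, adjusted p = 2.47e-09), and Ucp3, the muscle uncoupling protein homologue, from 3.15 to 8.25 CPM (median 5.51) in eWAT and from 98.03 to 162 CPM (median 126) in gastrocnemius (-4.53 ± 0.23). The dehydrogenases Acadvl, Acadl and Acadm, for very long, long and medium chains, differed by -1.46, -1.04 (about 0 with library totals) and -1.14, and Acads, for short chains, went the other way (0.95). Cpt1a, the liver form of the entry enzyme, was higher in eWAT (2.04 ± 0.28), at 42.9 to 84.5 CPM in eWAT against 5.31 to 23.5 CPM in gastrocnemius, and so was Decr1, needed for unsaturated chains (0.51), whose call was lost without eWAT library 27 (0.35) or gastrocnemius library 8 (0.35).

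Counts on genes of the mitochondrial genome took 16.7 ± 1.09% (SD, n = 6) of the eWAT totals and 37.3 ± 5.38% (SD, n = 6) of the gastrocnemius totals. The eWAT libraries lay between 15.1% and 18.2% and the gastrocnemius libraries between 29.8% and 45.5%, without overlap (exact two-sided permutation test over 924 arrangements, p = 0.00216, the smallest it can give). Protein genes accounted for 8.89% and 25.8%, and the rRNA genes for 7.78% and 11.5% (exact p = 0.00649). All 7 tested protein genes of the genome were higher in gastrocnemius, from mt-Nd4 (25449 to 58981 CPM in eWAT against 101917 to 223041 CPM in gastrocnemius, -2.08) to mt-Nd1 (-3.21) and mt-Nd2 (-3.55), with mt-Cytb at -2.85 and mt-Co1 at -2.72. The shallowest library, gastrocnemius 4, had the highest share (45.5%). Of the 13 protein genes 6 could not be tested. Both mt-Co2 and mt-Co3 were at 0 in all 12 libraries, and all of the 50-base words in the last 300 bases of mt-Co2 and 99.6% of those of mt-Co3 recur in transcripts of other annotated genes. The same holds for 100% of the words of mt-Co1, which had enough counts to be tested.

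A limit of the same kind touches other members. Of 602 genes on the 25 lists, 125 were not tested, and 10 had no count in any library. Where at least 25% of the 50-base words at the transcript end recur in another gene, 41.3% of members were not tested, against 15.6% of the rest. This comparison pools the lists, and many members with shared words are ribosomal proteins, of which 48 of 85 were tested. Whether sharing caused missing counts was not tested. Cpt1b, the muscle form of the entry enzyme to beta-oxidation, had 0 counts (76.3% of its words shared), Gapdh had 15 in eWAT and 28 in gastrocnemius (78.3%), and Eef1a1, a translation factor of most cells, shares 72.5% of its words. Pygm, muscle phosphorylase, Pgk1, of glycolysis, and Fbxo32, a ubiquitin ligase of muscle, had 26, 4 and 38 counts in gastrocnemius without any shared word. No direction is drawn from the levels of these 6 genes, 3 of which (Cpt1b, Eef1a1 and Pygm) enter the isoform pairs given next. Other named genes have at least 25% of their end words in common with another gene but enough counts to be tested, and their values are uncertain to the extent that counting could split or drop such reads. They are Cacna1s, mt-Co1, Irs1, Atp2a1, Acadvl, Myh2, Tnnc2, Hbb-bs, Tagln, Abhd5, Bhlhe41, Myh1, Aqp7, Tpm3, mt-Nd2, Hoxa7 and Pfkp. Ribosomal protein genes are treated with their list. Words were searched on both strands. In some genes, such as Cacna1s (100%), Acadvl (100%) and Atp2a1 (89.7%), opposite-strand exons cover that share of the end. In others, such as Hbb-bs, Aqp7 and Bhlhe41, they cover none. Where they do, the doubt depends on the strand setting of the counting, which is not given.

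**Figure D4:**
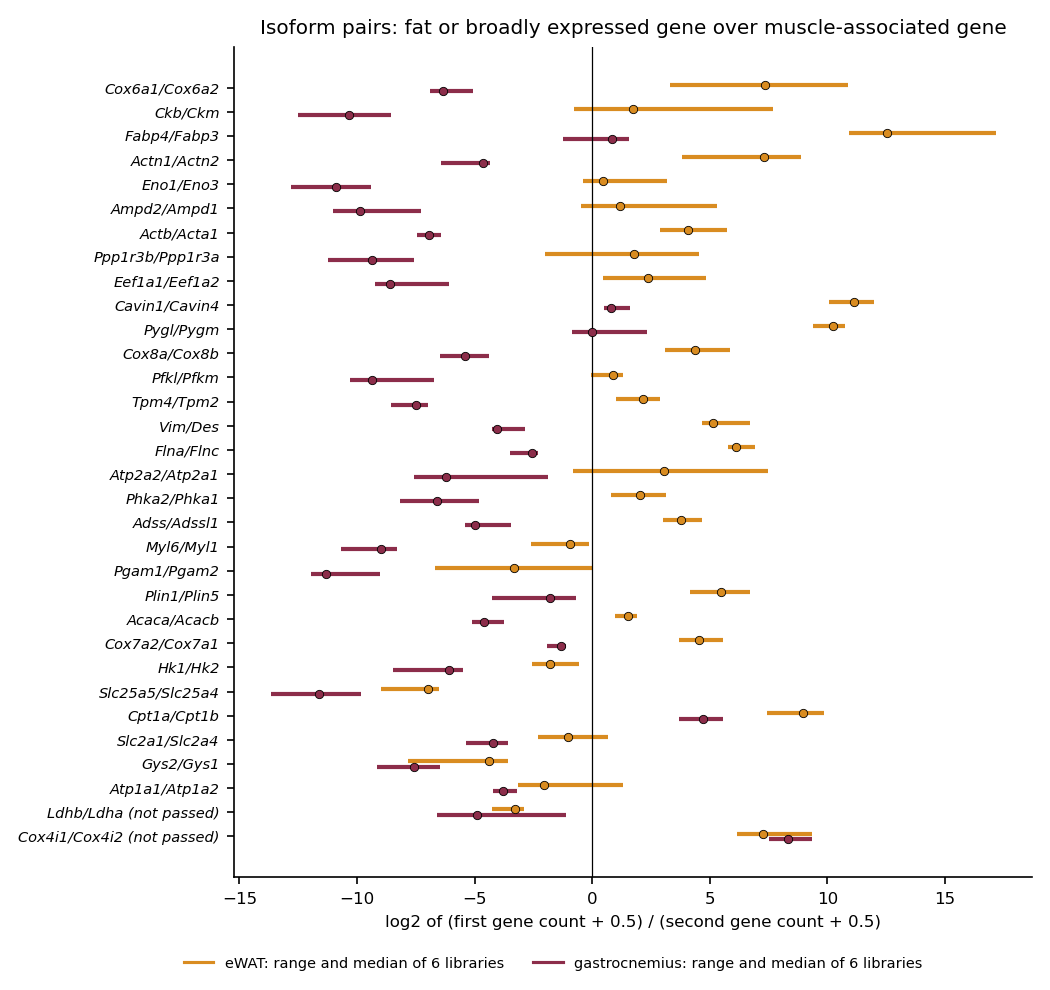
Log2 ratio of the counts of the gene set as fat or broadly expressed to those of the relative set as muscle-associated (0.5 added to each). Shown are the range (line) and median (point) of 6 libraries for eWAT (orange) and gastrocnemius (dark red) in 32 pairs. In 30 pairs the ratio is higher in eWAT, and Ldhb/Ldha and Cox4i1/Cox4i2 did not pass.

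Isoform choice was then tested within libraries, as the log2 ratio of 2 related genes, with 0.5 added to each count, which needs no scaling between tissues where both genes have counts. Of 32 pairs of a fat or broadly expressed gene and a muscle-associated relative, 30 had a higher ratio in eWAT by the exact permutation test, adjusted over the 32 pairs. The pairs were composed from textbook isoforms whose tissue is known, so their direction is a check of the tissues more than a result, and the sizes are what the data add. The adjusted p was 0.00239 in 29 of the 30, whose unadjusted p of 0.00216 is the smallest the design allows, and 0.00924 for Gys2/Gys1. In 17 pairs both genes were called across all tested genes, in opposite directions. Cox6a1/Cox6a2, the liver and heart forms of a cytochrome oxidase subunit, ran from 3.30 to 10.89 (median 7.35) in eWAT and from -6.89 to -5.08 (median -6.32) in gastrocnemius, a difference of 13.39 that was 12.66 without eWAT library 17 and 14.18 without library 25. Ckb/Ckm differed by 12.63, or by 11.52 without eWAT library 17, where Ckb was highest, and 13.22 without library 25. Fabp4/Fabp3 ran from 10.93 to 17.16 (median 12.52) in eWAT and from -1.25 to 1.55 (median 0.86) in gastrocnemius, a difference of 12.45, or 12.74 without eWAT library 17 and 11.61 without library 27. These 3 pairs had the largest differences with all libraries, and their order changed with the library left out. Smaller shifts included Cox7a2/Cox7a1 (5.91) and Slc2a1/Slc2a4, the basal and the insulin-responsive glucose transporters (3.30). Adenylosuccinate synthases (Adss/Adssl1), filamins (Flna/Flnc) and caveolae proteins (Cavin1/Cavin4) differed by 8.49, 8.93 and 10.08. Ldhb/Ldha, the heart and muscle forms of lactate dehydrogenase, did not pass (adjusted p = 0.342), with ranges that overlapped, from -4.25 to -2.90 (median -3.29) in eWAT and from -6.59 to -1.10 (median -4.88) in gastrocnemius. In 6 pairs a member shares at least 25% of its end words with other genes (Cpt1a/Cpt1b, Eno1/Eno3, Myl6/Myl1, Atp2a2/Atp2a1, Eef1a1/Eef1a2 and Vim/Des), and without them 24 of 26 passed. In Cpt1a/Cpt1b and Pgam1/Pgam2 a member was at 0 in all 12 libraries and in Pygl/Pygm the muscle gene was close to 0, so these ratios follow the count of the other gene and with it the depth of the library. Without the 2 pairs at 0, 28 of 30 passed. Few counts also stand behind the general member of Slc25a5/Slc25a4 (25 in eWAT and 9 in gastrocnemius), Eef1a1/Eef1a2 (97 and 11), Ampd2/Ampd1 (49 and 1), Ppp1r3b/Ppp1r3a (40 and 2) and Gys2/Gys1 (33 and 1), and behind Cox4i2 (34 and 3) in Cox4i1/Cox4i2, so the muscle value of these ratios rests largely on one gene.

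Insulin signalling showed no common direction. Of 19 tested genes 7 were higher in eWAT, 5 in gastrocnemius, and 7 were not called. Slc2a4, the GLUT4 transporter that insulin moves to the surface, ranged from 21.8 to 54.3 CPM (median 32.97) in eWAT and from 331 to 428 CPM (median 382) in gastrocnemius (-3.46 ± 0.21, adjusted p = 1.63e-10). Tbc1d1 and Tbc1d4, which hold GLUT4 vesicles back until they are phosphorylated, were both higher in gastrocnemius (-2.81 and -1.31). The receptor Insr, at 45.4 to 115 CPM in eWAT against 39.2 to 80.8 CPM in gastrocnemius, the docking protein Irs2, at 67.5 to 178 CPM in eWAT against 86.8 to 155 CPM in gastrocnemius, and the kinase Akt2, at 37.3 to 90.9 CPM in eWAT against 38.9 to 70.1 CPM in gastrocnemius, were not called, with adjusted p of 0.0622, 0.31 and 0.197. Irs1 was higher in gastrocnemius (-1.13 ± 0.26). Catalytic subunits of PI3-kinase were opposed, Pik3ca higher in gastrocnemius (-1.37) and Pik3cb in eWAT (2.39), and the regulatory subunit Pik3r1 was higher in eWAT (0.98). Grb10, an adaptor that restrains the receptor, and Trib3, a pseudokinase that binds AKT, were higher in eWAT by 1.58 and 2.36.

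Matrix and stromal genes were higher in eWAT. All 28 collagens and matrix genes were tested, 25 were higher in eWAT and none in gastrocnemius, with a median of 2.04. Sparc, a collagen-binding glycoprotein, ranged from 4540.3 to 6369 CPM (median 5573) in eWAT and from 209 to 435 CPM (median 260.3) in gastrocnemius (4.20 ± 0.26, adjusted p = 2.21e-10). Basement membrane collagen Col4a1, which surrounds adipocytes and fibres alike, stood at 481 to 717 CPM in eWAT against 71.1 to 98.03 CPM in gastrocnemius (2.73), and the fibrillar Col1a1 and Col3a1 differed by 1.95 and 2.39. Bgn and Postn, of the same matrix, differed by 3.18 and 3.86. Dcn, decorin, differed by 1.08, and Lama2, the laminin chain of muscle basement membrane, was not called, at 9.81 to 16.3 CPM in eWAT against 15.3 to 27.4 CPM in gastrocnemius.

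Markers of the other cells a fat pad or a muscle can hold gave unequal pictures. All 9 tested macrophage markers of 13 were at least 4-fold higher in eWAT, summing to 866 to 1420 CPM against 94.1 to 153 CPM, with Lyz2, lysozyme, at 344 to 689 CPM in eWAT against 44.8 to 66.7 CPM in gastrocnemius (3.17) and C1qa, of complement, at 103 to 270.2 CPM in eWAT against 9.37 to 19.4 CPM in gastrocnemius (3.53). Of 11 endothelial markers 9 were higher in eWAT, Kdr (VEGF receptor 2) by 1.86 and Pecam1 by 1.65, and the sums were 700.4 to 1011 CPM against 301 to 456 CPM. Mesothelial markers, of the lining of the abdominal cavity, were higher in eWAT in all 7 tested of 9, and Lrrn4 had 1059 counts in eWAT and 0 in gastrocnemius. Pericytes and smooth muscle gave both directions, with Abcc9 and Rgs5 higher in gastrocnemius (-2.55 and -0.81, the latter turning sign with library totals) and Acta2 and Tagln higher in eWAT (2.16 and 2.13). Globin transcripts of blood were higher in eWAT, Hbb-bs at 2167 to 8084 CPM in eWAT against 470.2 to 686 CPM in gastrocnemius (3.16), and liver markers were present there as well, Alb at 17.6 to 223 CPM in eWAT against 0 to 2.99 CPM in gastrocnemius (5.92). Lymphocyte markers were too sparse to test but for Ighm, which was not called. Thbs4, a tendon and muscle matrix protein, was at 0 to 0.371 CPM in eWAT against 54.7 to 157 CPM in gastrocnemius. The part of these cells in the differences of other genes was not tested.

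Outside the lists, the genes with the largest differences in favour of eWAT among abundant ones were led by Igkc and Slpi. Igkc, the kappa light chain of antibodies, had 4640 counts in eWAT and 0 in gastrocnemius, at least 409.9 times higher, and Slpi, a protease inhibitor, 4253 and 0, at least 376 times. Slpi was highest in eWAT library 26, at 384 CPM against 75.6 to 145 CPM in the other eWAT libraries. Its fitted fold change, with no muscle count behind it, was 1.54 times smaller without that library. Haptoglobin (Hp), which binds free haemoglobin and which fat secretes, ranged from 1604 to 2764 CPM (median 2060.4) in eWAT and from 0 to 23.95 CPM (median 2.74) in gastrocnemius (8.35 ± 0.63, adjusted p = 2.61e-09, or 9.78 without gastrocnemius library 9), and Lgals12, a galectin of adipocyte droplets, had 1629 counts in eWAT and 1 in gastrocnemius, an eWAT to gastrocnemius ratio of 432 (95% counting interval 77.4 to 17063). Without gastrocnemius library 9, which held the muscle count, it was at least 119 times higher in eWAT with a floor of 3 counts over the group. On the muscle side, Ankrd2, a stretch-responsive protein, Smpx, of costameres, and Klhl41, which stabilises nebulin, differed by -10.39, -10.10 and -9.94. Without eWAT library 25 Ankrd2 and Smpx differed by -11.79 and -10.96, and without gastrocnemius library 4 Ankrd2 by -9.70. Carbonic anhydrase 3 (Car3), an enzyme of both tissues, ranged from 6881 to 16249.5 CPM (median 14326) in eWAT and from 1593 to 3369 CPM (median 2235) in gastrocnemius (2.52 ± 0.30), and Apoe, an apolipoprotein that macrophages and adipocytes make, stood at 7119 to 10529 CPM in eWAT against 117 to 217 CPM in gastrocnemius (5.76).

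Clock genes were measured at unstated times of day. Of 13 tested, 8 were higher in gastrocnemius and 2 in eWAT. Arntl (BMAL1), an activator of the clock, differed by -1.11 ± 0.24, and Npas2, a paralogue of Clock, by 1.29 ± 0.39 in the other direction. The repressors Nr1d1 and Nr1d2 (REV-ERB alpha and beta) differed by -0.96 and -1.44, and Per1 and Cry2 by -0.99 and -0.82, whereas Per3 was higher in eWAT (0.69), a call lost in 6 of the 12 fits without 1 library, at 0.49 to 0.63. Bhlhe40, Bhlhe41 and the output factor Tef were higher in gastrocnemius (-2.49, -2.28 and -1.34), Bhlhe41 by -3.09 without eWAT library 17. The signs of Nr1d1, Per1 and Cry2 turned with library totals.

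**Figure D5:**
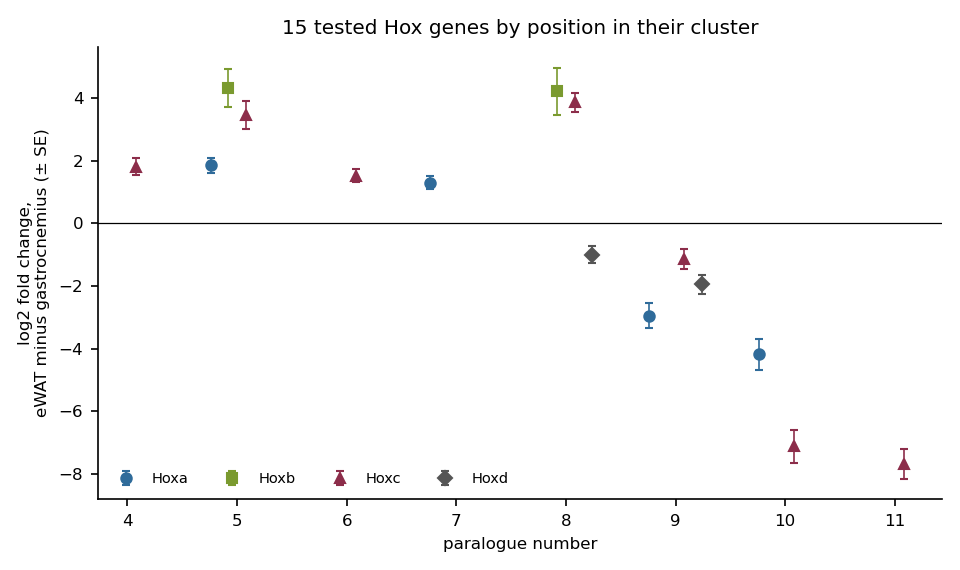
Log2 fold change (eWAT minus gastrocnemius, with SE) of the 15 tested Hox genes against paralogue number, by cluster. Of genes 4 to 8, 8 of 9 are higher in eWAT, and all 6 genes of numbers 9 to 11 are higher in gastrocnemius.

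Genes of body position differed in both directions. Hox genes encode the position of cells along the body axis, with low paralogue numbers used towards the head and high numbers towards the tail and the tips of the limbs, and adult cells keep them. Grouped by number after the values had been seen, 8 of the 9 tested genes of numbers 4 to 8 were higher in eWAT, and all 6 tested genes of numbers 9 to 11 were higher in gastrocnemius. The change of sign was found within the Hoxc and the Hoxa cluster. Hoxc8 ranged from 74.3 to 242 CPM (median 209.7) in eWAT and from 6.63 to 21.4 CPM (median 13.7) in gastrocnemius (3.86 ± 0.31, adjusted p = 6.35e-09), and Hoxc4, Hoxc5 and Hoxc6 differed by 1.81, 3.46 and 1.52. Hoxc9 was higher in gastrocnemius (-1.13 ± 0.32), and Hoxc10 ranged from 0 to 2.38 CPM (median 0.275) in eWAT and from 31.4 to 106 CPM (median 70.6) in gastrocnemius (-7.11 ± 0.53, adjusted p = 1.90e-09, or -7.93 without eWAT library 22). Hoxc11 had 1 count in eWAT and 121 in gastrocnemius, an eWAT to gastrocnemius ratio of 0.00219 (95% counting interval 5.50e-05 to 0.0124). Its eWAT count was in library 25, without which Hoxc11 was at least 124 times lower in eWAT with a floor of 3 counts over the group. In the Hoxa cluster Hoxa5 and Hoxa7 were higher in eWAT (1.85 and 1.30) and Hoxa9 and Hoxa10 in gastrocnemius (-2.95 and -4.19, the latter -5.10 without eWAT library 22). Hoxb5 and Hoxb8 were higher in eWAT (4.32 and 4.22, the latter 3.34 without eWAT library 17 and 4.86 without gastrocnemius library 5). The exception was Hoxd8, higher in gastrocnemius (-1.01 ± 0.27), and its sign turned with library totals. Other listed genes included Wt1, of the mesothelium and visceral fat, at 8.03 to 34.6 CPM in eWAT against 0 to 2.99 CPM in gastrocnemius. The nuclear receptors Nr2f1 and Nr2f2 differed by 3.57 and 1.46, and En1, a patterning factor of the embryo, was higher in gastrocnemius (-4.37). The whole list of 36 had 24 tested members, of which 11 were higher in eWAT and 12 in gastrocnemius.

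Cytosolic ribosomal protein genes mostly did not pass the test. Of 85, 48 were tested, 30 were not called, 13 were higher in gastrocnemius and 5 in eWAT, with a median of -0.13 that turned positive with library totals. All 85 together summed to 1897 to 3891 CPM in eWAT and 2778 to 3453 CPM in gastrocnemius. Many share end words with other genes, such as Rpl5 (100%), Rpl35 (96.0%) and Rps12 (86.6%), whereas Rpl4, Rpl6 and Rps20 share none. Where words are shared, counting could split or drop reads, so the lack of a call is uncertain there. Rpl3l, the striated muscle copy of Rpl3, was the only one at least 4-fold higher in gastrocnemius, from 0 to 3.91 CPM (median 1.35) in eWAT and from 384 to 548 CPM (median 477) in gastrocnemius (-8.28 ± 0.50, adjusted p = 1.32e-10, or -8.95 without eWAT library 25). Rps4l was the only one at least 4-fold higher in eWAT (2.03 ± 0.38). Among genes of at least 100 CPM in both tissues, those with the smallest differences were led by Itgb1, the beta 1 integrin, at 76.5 to 144 CPM in eWAT against 95.7 to 141 CPM in gastrocnemius, and Eef2, the translocase of translation, at 282 to 544 CPM in eWAT against 278 to 484 CPM in gastrocnemius. Neat1, a nuclear RNA of paraspeckles, stood at 1101 to 1566 CPM in eWAT against 1079 to 1368 CPM in gastrocnemius (0.02 ± 0.17).

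Spread between libraries differed by gene. For genes of at least 10 CPM the median SD of log2 CPM was 0.303 in eWAT (7074 genes) and 0.387 in gastrocnemius (6426 genes), and 89 and 188 genes had an SD over 1. Of the 10 genes with the widest spread in eWAT, 9 were highest in library 17, among them Cldn2, Prom1 at 508 CPM against 0.217 to 2.75 CPM, Mmp7, a matrix protease, at 272 CPM against at most 0.188 CPM, and Ptgds, prostaglandin D synthase, at 488 CPM, whereas 4 of the other 5 lay between 1.19 and 2.18 CPM. The fifth, library 18, lay above that range, with 20 Ptgds counts where 3 are worth 1.65 CPM. The tenth of these genes was Myh4, highest in library 25 at 294 CPM. In gastrocnemius, 7 of the 10 were slow-fibre genes, Tnnt1, Myl2, Myh7, Tnnc1, Myl3, Tpm3 and Atp2a2, and all 7 were highest in library 4 and lowest in library 8. The other 3, Tspan8, Cish and Sertad2, had 0 counts in library 4, where 3 counts are 11.8 CPM, above the minimum of 10 CPM. Slow troponin T, Tnnt1, stood at 1529 CPM in library 4, at 25.2 in library 8 and at 76.5 to 187 in the other 4. Tpm3, slow tropomyosin, was at 22.6 CPM in library 8, below all 6 eWAT libraries (22.7 to 39.1 CPM), and its log2 fold change of -3.20 was -1.86 without library 4. That of Atp2a2, -2.79, was -1.48 without it. The fast chain Myh4 was lowest in library 4, at 20272 CPM against 34603 to 52893 in the others.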

How the data were processed

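RNA was extracted with TRIzol, made into libraries with the QuantSeq 3′ mRNA-Seq FWD kit and sequenced on an Illumina HiSeq. Per the labels and the study's methods, the authors trimmed reads with BBDuk, aligned them to GRCm38 with STAR and deposited raw featureCounts counts per gene, one table per tissue; versions and the strand setting are not given in the sources used here. The 24 columns of other tissues were not used. Libraries were assigned to a tissue by table, since column names hold only numbers.

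The 2 tables (54838 genes each) were joined by gene identifier. Genes were filtered with filterByExpr (minimum count 10), scaled by TMM and tested with edgeR 4.0.16 (quasi-likelihood, Benjamini-Hochberg adjustment over 9672 genes, R 4.3.3), eWAT against gastrocnemius with no covariate. Log2 fold changes are eWAT minus gastrocnemius. Shares and isoform ratios were compared by exact permutation over 924 arrangements. The labels do not say that libraries came from separate or shared mice, so p-values measure the spread between these samples, which may in part be technical. Intervals and floors (3 counts) cover counting error only.

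Named were the 15 genes with the largest change in each direction (mean of at least 50 CPM in the higher tissue), the 10 highest nuclear genes of each tissue, the 10 least changed of at least 100 CPM, the 10 with the widest spread in each tissue, and members of the lists. Members and lists were chosen with earlier results of these data known. Alternatives were DESeq2 1.42.0, limma 3.58.1 voom, glmTreat, other scalings and filters, a stricter adjusted p of 0.01, and leaving out libraries. On simulated data (9672 genes, 200 changed, with rises and falls in equal number), edgeR recovered 54.5% of genes changed by 1 log2 unit and 92.5% of those changed by 2. In the data 69.9% of genes were called and the TMM factors differed by tissue. The simulation did not include this, so its rates are not those of this comparison. A few list members are counted in their lists but not reported here by name. Promoters are from RefSeq (GRCm38.p6). Shared transcript ends were counted as 50-base words in the last 300 bases, searched on both strands.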

Additional observations from a re-analysis of the deposited data

Results flagged for a closer look

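Among 92 groups of 6 libraries examined for one library far from the rest, 8 had one. The chance rate was taken as about 1 in 20, which was not measured on these data, and several flags fell in the same library. In eWAT library 17, the 10 highest nuclear genes took 9.12% of counts (14.8% to 16.5% in the other 5), cytosolic ribosomal proteins summed to 3891 CPM (1897 to 2618), endothelial markers to 700.4 CPM (969 to 1011) and germ cell markers to 55.1 CPM (4.99 to 11.3). In eWAT library 25, the Z disc, M band and titin list summed to 948.9 CPM (245 to 472) and the fibre markers to 1436 CPM (35.4 to 382). In gastrocnemius library 6, lymphocyte markers summed to 230.4 CPM (16.5 to 44.5), and in gastrocnemius library 7 the Schwann cell and nerve markers summed to 570.0 CPM (63.3 to 239). The cause of each was not tested.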

How the results depend on the processing

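Counts of calls depended on scaling and filter. With library totals, 6545 genes were higher in eWAT and 1215 in gastrocnemius, so that 84.3% of calls were higher in eWAT against 55.0% with TMM (64.6% without the 100 highest genes), and 3019 and 485 differed by at least 4-fold. A minimum count of 50, which tests fewer genes, gave 3651 differing genes, 1938 and 1713 by direction, and 741 and 530 at least 4-fold. With no filter, 3151 and 2051 genes differed by at least 4-fold, and glmTreat against a log2 fold change of 1 called 3645, 2151 and 1494 by direction. Leaving out 1 library at a time gave 6468 to 7140 differing genes, 3428 to 3946 higher in eWAT, 2898 to 3194 higher in gastrocnemius, and 1399 to 1726 and 879 to 976 at least 4-fold. The pairs that passed stayed at 30, and the mtDNA share differed by -22.1 to -19.0 percentage points. Without eWAT libraries 17 and 25 and gastrocnemius library 4, 1479 and 1004 genes differed by at least 4-fold.

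Medians that changed sign were those of the neuromuscular junction (0.33 with a minimum count of 50), ribosomal proteins (0.94 with library totals, 0.13 without the 100 highest genes), the clock (0.10 with totals), the homeobox and T-box list (0.34 with totals, 1.34 with a minimum count of 50) and Schwann markers (0.0011 with DESeq2 size factors, 0.99 with totals, 0.22 without the 100 highest genes, 0.36 with limma-voom and -0.71 to 0.46 leaving out 1 library, positive only without gastrocnemius library 7). With library totals, Mlxipl (0.20), Prkaca (0.0054), Acadl (0.0056), Ndufa7 (0.31), Cox7a2 (0.085), Cox4i1 (0.35), Sdha (0.030), Rgs5 (0.23), Per1 (0.053), Nr1d1 (0.10), Cry2 (0.24) and Hoxd8 (0.069) turned to the eWAT side, as did Ndufa2 (0.74), Lama2 (0.66), Eef2 (1.05) and Rxra (0.73), which were not called with TMM. The log2 fold change was 5.44 for Msln and 5.77 for Wt1 with all libraries. The only muscle counts of Msln were in gastrocnemius library 8, and those of Wt1 in library 7. Without the library that held them, Msln was at least 25.6 times and Wt1 at least 33.8 times higher in eWAT, with a floor of 3 counts over the group. No paired analysis was possible because the column names carry library numbers that the tissues do not share. The shallowest library, gastrocnemius 4, limits levels there to about 11.8 CPM for 3 counts.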
